A study of Mus musculus with 6 samples.

Results

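Transglutaminases are calcium-dependent enzymes that join a glutamine of one protein to a lysine of another and so fix proteins to each other by a covalent bond. Described here are Tgm1, Tgm2 and F13a1, 3 genes of 29589 named genes in the expression table, in the spinal cord of mice with and without a traumatic injury. They were taken by gene name, as 17 of 194125 isoform rows and 3 of 17440 circular RNA (circRNA) rows, and they were chosen with their difference between injured and sham cord already known. That difference is therefore given as a description, with no test. TSCI libraries came from 8-week-old male C57BL/6 mice, an inbred strain, whose vertebral arches were opened at T8 to T10 and whose cord then received a moderate weight-drop injury. Sham libraries came from mice of the same strain, sex and age that had the same opening of the arches and no injury. Both groups have 3 libraries. According to the labels 48 mice were divided into sets of 8; whether a set was pooled and the time from injury to sampling are not stated, so the spread between libraries may not be a spread between mice.

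Tgm1 is the membrane-anchored transglutaminase of keratinocytes, which cross-links proteins into the cornified envelope of the skin. Tgm2, tissue transglutaminase, also binds GTP and, at the cell surface, joins integrins to fibronectin. F13a1 encodes the A subunit of coagulation factor XIII, which thrombin activates and which cross-links fibrin in a clot; platelets, monocytes and some tissue macrophages make it. In bulk tissue such as this, a change in the number of cells of a type and a change in RNA per cell cannot be told apart.

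The 3 genes share the active site of the family. A motif of consecutive codons that holds the codon of the catalytic cysteine was searched on the coding strand and occurred in frame 1 time in each coding sequence. Below, 60 coding bases around it are shown for each gene (GENCODE M21, GRCm38, minus strand, read 5′ to 3′), with the motif in capitals, because the same codon recurs in the circRNAs of F13a1. It lies in exon 7 of Tgm1 (codon 376, chromosome 14, 55709422 to 55709424), in exon 6 of Tgm2 (codon 277, chromosome 2, 158131359 to 158131361) and in exon 7 of F13a1 (codon 315, chromosome 13, 36946471 to 36946473), counted from the start codon.
Tgm1: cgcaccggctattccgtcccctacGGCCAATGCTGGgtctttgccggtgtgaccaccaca
Tgm2: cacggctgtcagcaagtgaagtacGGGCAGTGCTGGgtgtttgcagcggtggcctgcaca
F13a1: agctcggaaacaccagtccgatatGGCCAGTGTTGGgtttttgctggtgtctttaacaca

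Of these 60 bases, Tgm1 and F13a1 had 38 in common, Tgm1 and Tgm2 had 37, and Tgm2 and F13a1 had 31. Tgm1 and F13a1 also share their exon layout. Each has 15 exons, of which 10 have the same width in both, among them the 7 consecutive exons 5 to 11. Over those 7 exons the sequence identity ran from 49.4% to 71.2%. Introns differ far more than exons: after exons 5 to 11 they measure 101 to 2125 bases in Tgm1 and 1579 to 25255 bases in F13a1. Tgm2 has 13 exons, and its exon 9, of 243 bases, is as wide as exons 10 and 11 of Tgm1 together.

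**Figure D1:**
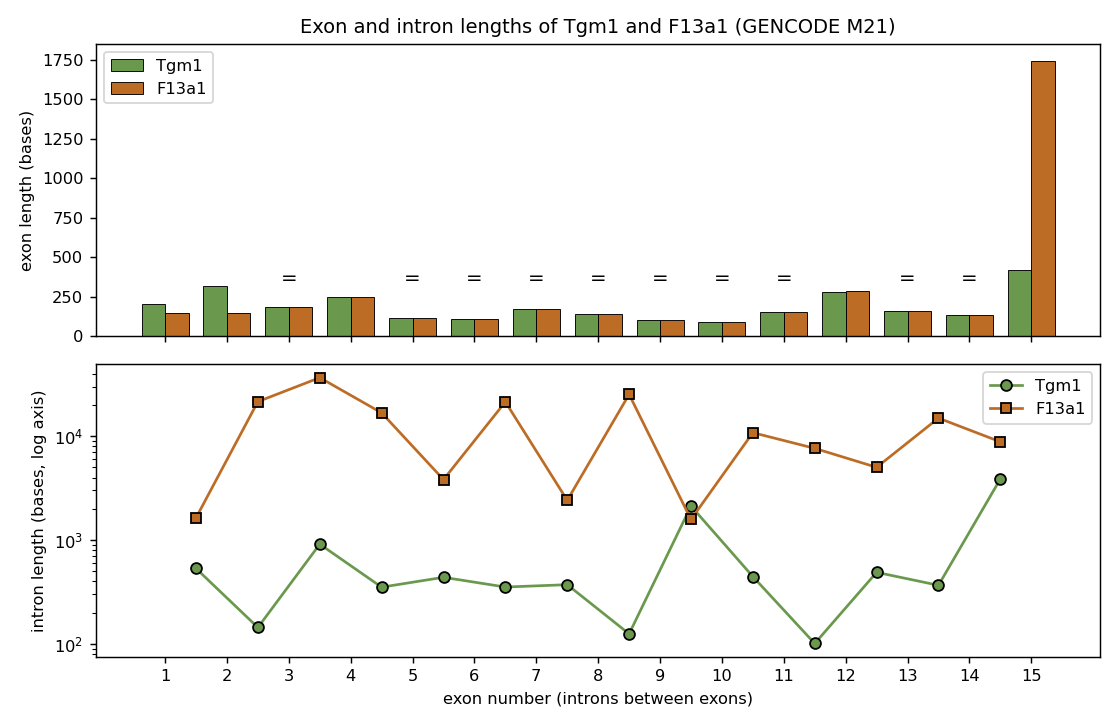
Exon lengths (bases, bars, upper panel) and intron lengths (bases, log axis, lower panel) of Tgm1 and F13a1 by exon number, with exons of equal length marked by an equals sign. Exons 5 to 11 are as long in Tgm1 as in F13a1, while 13 of the 14 introns are longer in F13a1.

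The libraries differed in ways that the groups do not explain. Aligned bases, recovered from the deposited values, were 4.46 to 9.16 gigabases in TSCI and 4.80 to 8.20 gigabases in sham libraries. TSCI replicate 1 and sham replicate 1 came from sequencing lane 8 and had 9.76% and 10.2% of their bases in intronic assemblies, against 1.98% to 3.83% elsewhere. Sham replicate 2, from lane 3, listed 2451 of the 16740 genes tested at 0, and the other libraries 409 to 762. The median gene was 0.44 higher in TSCI on the log2 scale. Of the tested genes, 147 (0.878%) were higher and 2 (0.0119%) were lower in TSCI past an adjusted p of 0.05 (limma, Benjamini-Hochberg). Neuronal markers of the cord were present in both groups. The summed level of 6 neuronal genes, led by Snap25 and Eno2, was 164 to 374 FPKM in TSCI libraries and 240 to 572 FPKM in sham. FPKM are fragments per kilobase of transcript, scaled to the mapped fragments of the library.

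Tgm1 (ENSMUSG00000022218, chromosome 14, 55700009 to 55713926, minus strand, GRCm38) reached 54.9, 17.7 and 22.0 FPKM in TSCI replicates 1 to 3, against 0.0934, 0 and 0.252 FPKM in sham replicates 1 to 3. The groups did not overlap, and sham cord held Tgm1 at or near 0. Its aligned bases were 674, 392 and 556 kilobases in TSCI and 1.58, 0 and 5.89 kilobases in sham libraries. The listed 0 in sham replicate 2 may be a failed estimate, since that library lists many genes at 0. No ratio of mean FPKM is therefore given for Tgm1. The 0 does enter the mean log2 difference and the sham rank below, and the mean log2 difference was 5.41 without that library. On the log2(FPKM + 0.5) scale, the mean difference was 5.55 with an SD within groups of 0.64, and the smallest gap between a TSCI and a sham library was 4.60. The size depends on the pseudocount: it was 7.20 with 0.1 and 4.70 with 1. Within lane 8 the difference was 6.54, and within lane 1, which held TSCI replicates 2 and 3 and sham replicate 3, it was 4.75. By mean FPKM among the 16740 tested genes, Tgm1 stood at rank 1362 in TSCI and 16462 in sham, and its log2 difference was the 13th largest among positive ones.

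Tgm2 (ENSMUSG00000037820, chromosome 2, 158116402 to 158146436, minus strand) was at 37.3, 15.1 and 28.7 FPKM in TSCI, against 3.73, 1.42 and 2.41 FPKM in sham libraries. The groups did not overlap: the lowest TSCI library, replicate 2, lay 1.88 above the highest sham library, replicate 1, on the log2 scale. The means were 27.0 ± 11.2 FPKM in TSCI libraries and 2.52 ± 1.16 FPKM in sham (SD, n = 3 each), a ratio of 10.7. The mean log2 difference was 3.17, with an SD within groups of 0.61, and it was 3.16 within lane 8 and 2.88 within lane 1. Unlike Tgm1, Tgm2 was present in every sham library, and it stood at rank 1626 in TSCI and 10193 in sham.

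F13a1 (ENSMUSG00000039109, chromosome 13, 36867178 to 37050244, minus strand) was at 13.4, 11.6 and 10.8 FPKM in TSCI, against 2.12, 2.17 and 2.10 FPKM in sham libraries. These were the most even replicates of the 3 genes: the means were 11.9 ± 1.32 FPKM in TSCI libraries and 2.13 ± 0.0351 FPKM in sham (SD, n = 3 each). The ratio of means was 5.598. The mean log2 difference was 2.23 with an SD within groups of 0.11, against 2.40 within lane 8 and 2.17 within lane 1. F13a1 stood at rank 4149 in TSCI and 10882 in sham.

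In all 3 genes every TSCI library lay above every sham library, which was also true of 13.4% of all tested genes; nothing is read from this, since the genes were chosen on the same contrast. In TSCI, F13a1 was the lowest of the 3 in every library, while Tgm1 and Tgm2 overlapped. In sham cord Tgm1 was the lowest in every library, and F13a1 lay within the range of Tgm2. Leaving out each library in turn kept the log2 differences at 5.06 to 5.86 for Tgm1, 2.88 to 3.53 for Tgm2 and 2.15 to 2.30 for F13a1. Without both lane 8 libraries they were 5.05, 3.17 and 2.15.

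**Figure D2:**
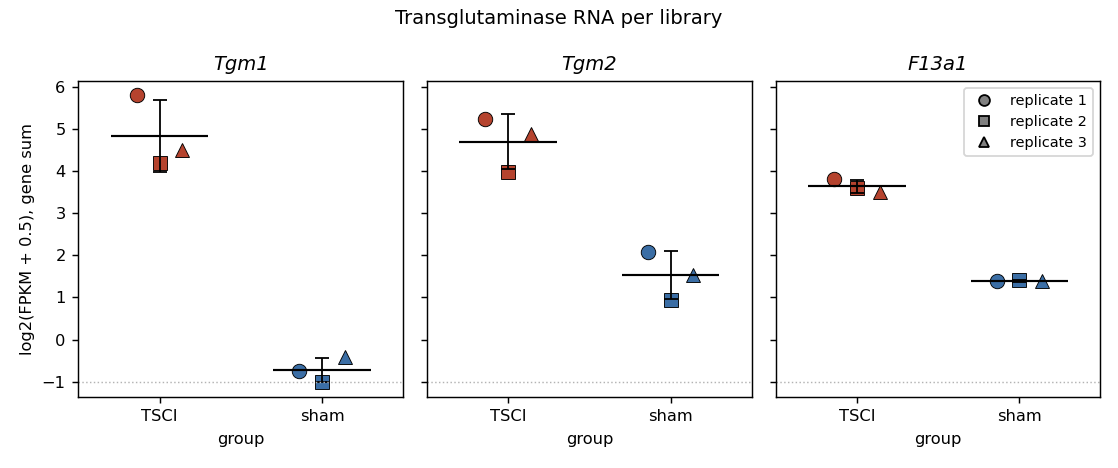
Levels of Tgm1, Tgm2 and F13a1 in each library as log2(FPKM + 0.5), TSCI left and sham right, with markers for replicates 1 to 3, a line for the mean, bars for the SD and a dotted line where a gene is at 0 FPKM. Every TSCI library (10.8 to 54.9 FPKM) lies above every sham library (0 to 3.73 FPKM), and F13a1 has the tightest replicates.

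Tgm1 RNA came mostly from 1 isoform. ENSMUST00000178034 was at 54.0, 10.1 and 21.3 FPKM in TSCI and was listed at 0 in all 3 sham libraries, and it held 98.4%, 57.2% and 96.6% of Tgm1 FPKM in TSCI. TSCI replicate 2 stood apart: there ENSMUST00000168729 held 42.5%, at 7.54 FPKM, against 0.411 and 0.361 FPKM in TSCI replicates 1 and 3. In sham, ENSMUST00000168729 was the only isoform above 0, at 0.0934, 0 and 0.252 FPKM. An isoform with a start site of its own, ENSMUST00000002389, reached at most 0.473 FPKM in TSCI and was at 0 in sham. ENSMUST00000178034 and ENSMUST00000168729 start at the same base in the table (55713492) and differ in exon 1. Their lengths in the table are 2753 and 2852 bases, so the split between them rests on few bases.

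Both major isoforms thus share 1 promoter. The 250 bases before that start site are shown because nearly all Tgm1 RNA of injured cord was assigned to transcripts that begin there (RefSeq, GRCm38.p6, chr14:55713493-55713742, minus strand, read 5′ to 3′). Capitals mark the matches to the STAT motif TTCNNNGAA.
Tgm1 promoter: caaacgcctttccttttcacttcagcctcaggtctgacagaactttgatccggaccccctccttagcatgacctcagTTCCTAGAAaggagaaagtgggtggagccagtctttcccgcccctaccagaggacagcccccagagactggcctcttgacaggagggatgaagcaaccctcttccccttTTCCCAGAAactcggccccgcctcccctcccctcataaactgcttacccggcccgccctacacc

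Motifs were searched on both strands of the window from 250 bases before to 50 bases after the start site, and shares refer to 32851 mouse promoters of that length. The STAT motif matched 2 times, at 173 and 64 bases before the start site; 8.30% of promoters hold at least 1 match and 0.457% hold at least 2. The SP1 motif GGGCGG matched 2 times (at least 1 in 35.7% of promoters). AGGTCA, a single unit of a retinoid receptor element and not a whole element, matched 1 time (16.3%). Neither overlapped the STAT matches. No match was found to the AP-1 motif TGANTCA (7.81%), the C/EBP motif TTNCNNAA (40.7%) or TATAAA (13.6%). The F13a1 promoter at the start site of its isoform in the table (37049213) held 1 match, to the C/EBP motif, and none to the other 5 motifs. A match is a description of letters and not a sign that a factor binds there.

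Tgm2 was also carried by 1 isoform. ENSMUST00000103122, with 13 exons, was at 31.0, 14.7 and 27.9 FPKM in TSCI libraries and at 3.68, 1.42 and 2.41 FPKM in sham. It held 83.1% to 97.3% of Tgm2 FPKM in TSCI libraries and 98.5% to 100% in sham. An assembled isoform with 10 exons and a junction outside the annotation reached 4.25 FPKM in TSCI replicate 1, with 0 and 0.0970 FPKM in TSCI replicates 2 and 3 and 0 in each sham library. The remaining annotated isoforms, a retained intron (ENSMUST00000140923), a processed transcript (ENSMUST00000152690) and a transcript marked for nonsense-mediated decay (ENSMUST00000174718), stayed below 1 FPKM in every library. Gm20412, on the opposite strand, lies wholly within the last exon of Tgm2 (158117154 to 158117905) and was at 21.01, 9.80 and 23.97 FPKM in TSCI libraries and 1.71, 0 and 0.990 FPKM in sham. Rprd1b, which also overlaps Tgm2 on the opposite strand, ran the other way, at 4.30, 23.3 and 9.07 FPKM in TSCI libraries and 6.12, 233 and 133 FPKM in sham. The library kit keeps strand, but whether counting used it is not stated, so reads of Tgm2 and of either gene cannot be told apart where they overlap.

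**Figure D3:**
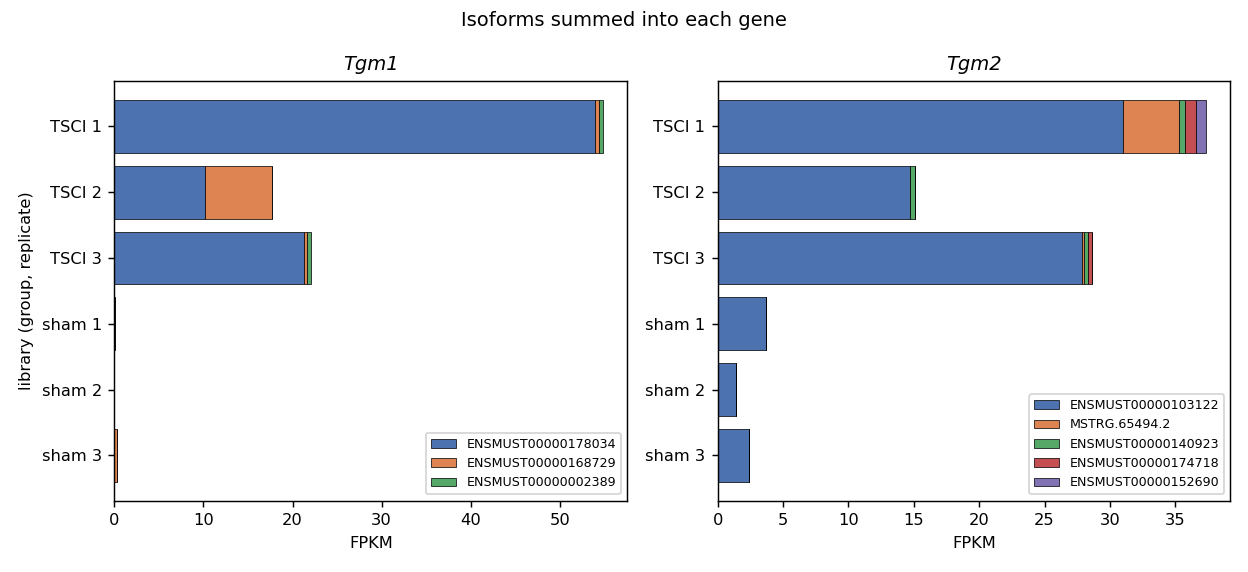
FPKM of the isoforms summed into Tgm1 (left) and Tgm2 (right), stacked in 1 bar per library, TSCI above sham. One colour fills nearly the whole bar except in TSCI replicate 2 for Tgm1, where ENSMUST00000168729 adds 7.54 FPKM, and in TSCI replicate 1 for Tgm2, where an assembled isoform adds 4.25 FPKM.

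F13a1 had 1 annotated isoform, ENSMUST00000037491 with 15 exons, which is the whole of its gene value. The table also holds 7 short single-exon assemblies of 200 to 302 bases within F13a1 introns, 6 on the minus strand and 1 on the plus strand. They lay the other way, lower in TSCI: together they were at 0, 0 and 1.28 FPKM in TSCI, against 7.38, 11.8 and 9.34 FPKM in sham. The number of them above 0 was 0, 0 and 2 in TSCI, against 4, 1 and 3 in sham. They are so short that little sequence lies behind these values, namely 0, 0 and 2.87 kilobases of aligned bases in TSCI and 11.5, 12.2 and 19.0 kilobases in sham, against 232, 355 and 385 kilobases in TSCI and 48.9, 40.4 and 66.7 kilobases in sham for the spliced isoform. Where they are added to the gene, F13a1 comes to 13.4, 11.6 and 12.1 FPKM in TSCI libraries and 9.51, 13.96 and 11.4 FPKM in sham. The groups then overlap, the ratio of means is 1.06 and the log2 difference is 0.10, against a median of 0.465 over all genes counted that way. The F13a1 difference above is therefore one of the spliced isoform.

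Among the 3 genes, F13a1 alone has circRNAs in the table. A circRNA is closed by a back-splice, which joins the end of a later exon to the start of an earlier exon. All 3 match exon boundaries of ENSMUST00000037491 on chromosome 13, minus strand. circRNA10308 spans 36905903 to 36968125 and holds exons 6 to 11 (769 bases). circRNA5294 spans 36905903 to 36918635 and holds exons 9 to 11 (347 bases). circRNA5295 spans 36943891 to 36946617 and holds exons 7 and 8 (314 bases). The back-splice junctions are shown, since they are the sequences that set a circRNA apart from the linear mRNA (GENCODE M21, GRCm38). In each, 20 bases from the end of the last exon are in lower case, and the first 20 bases of the first exon are in capitals.
circRNA10308: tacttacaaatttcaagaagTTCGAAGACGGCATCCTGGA
circRNA5294: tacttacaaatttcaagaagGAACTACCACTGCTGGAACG
circRNA5295: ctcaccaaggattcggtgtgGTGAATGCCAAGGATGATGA

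circRNA10308 and circRNA5294 share the end of exon 11, so their left 20 bases are the same. The exons of circRNA5295 and circRNA5294, with exon 6, make up those of circRNA10308. The catalytic codon shown above, in exon 7, is held by circRNA10308 and circRNA5295 and not by circRNA5294. All exons involved lie in the stretch whose widths are the same in Tgm1, a gene with no circRNA in the table. The introns that flank the F13a1 circles measure 3822 bases before and 7633 bases after circRNA10308, 25255 and 7633 bases for circRNA5294, and 21400 and 25255 bases for circRNA5295.

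circRNA10308 had 1074, 587 and 800 estimated counts in TSCI libraries, against 135, 143 and 211 in sham libraries. The means were 820 ± 244 counts in TSCI and 163 ± 41.9 counts in sham (SD, n = 3 each), with no overlap. On the deposited FPKM of circRNAs it was at 52.5, 21.3 and 22.1 in TSCI and 4.61, 4.70 and 7.02 in sham, a ratio of means of 5.87. By mean count it stood at rank 935 of the 17440 circRNAs in TSCI and at 7776 in sham.

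circRNA5294 had 161, 120 and 199 counts in TSCI and 12.3, 37.5 and 22.5 counts in sham. Its FPKM ratio was 7.34. circRNA5295, the smallest, had 73.0, 39.8 and 95.0 counts in TSCI and 9.33, 0 and 4.50 counts in sham. A count of 0 in sham replicate 2 allows up to 3 counts, for counting error only. Its FPKM ratio was 16.3, but that rests on few sham counts: the log2 difference was 2.95 with a pseudocount of 0.5 and 4.10 with 0.1. Every TSCI library lay above every sham library in all 3 circRNAs, as in 3.1% of the 17402 circRNAs with at least 10 counts. Their host was chosen on the same contrast, so nothing is read from this.

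The 3 circRNAs together had 1307, 747 and 1094 counts in TSCI and 157, 180 and 238 in sham. circRNA10308 made up 82.1%, 78.6% and 73.1% of these in TSCI and 86.2%, 79.2% and 88.7% in sham, so the mix of circles overlapped between groups. The linear isoform and the largest circle differed between groups by ratios of 5.598 and 5.87 in FPKM. The linear and circular tables were normalized separately, so levels are not set against each other across them. What was counted as a circRNA read, and whether linear reads over shared exons were among them, is not stated in the labels or the table.

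**Figure D4:**
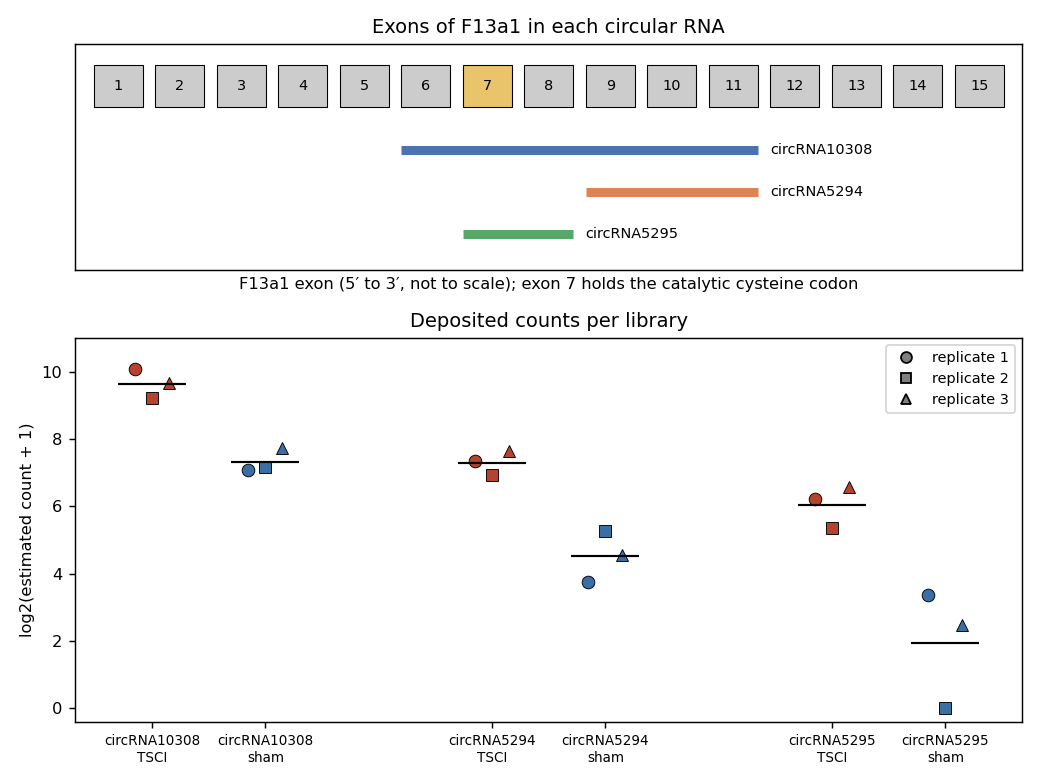
Exons of F13a1 held by each circRNA (upper panel, exons numbered and not to scale) and log2(estimated count + 1) of each circRNA by library (lower panel), TSCI left of sham, with a line for the mean. circRNA10308 lies at 587 to 1074 counts in TSCI and 135 to 211 counts in sham, and the shorter circles keep the order of groups at lower counts.

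The other members of the family gave little signal. Tgm3, Tgm4, Tgm5, Tgm6, Tgm7, the red cell membrane protein Epb42 and the factor XIII carrier subunit F13b were all below the mean of 0.5 FPKM needed for a test. Their sum was 0.440 to 2.22 FPKM in TSCI libraries and 0 to 0.978 FPKM in sham. By mean level in TSCI, Epb42 was the highest, at 0.289, 0.429 and 1.74 FPKM in TSCI libraries and 0.206, 0 and 0 FPKM in sham. F13b, with which the A subunit circulates in plasma, was at 0, 0 and 0.0132 FPKM in TSCI libraries and 0 in each sham library.

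Partners, substrates and regulators of the 3 enzymes were read from lists that hold 57 genes in all, of which 30 were tested. In the limma fit over all 16740 genes, 3 of these 30 (10%) were higher in TSCI and 0 were lower, against 0.878% and 0.0119% of all genes. The median log2 difference of the 30 was 1.39, against 0.44 over all genes, and 26 were positive. In 12 genes all TSCI libraries lay above all sham libraries and in 3 all lay below, against 13.4% and 3.13% of all genes. The lists were chosen with earlier results of these data known, so nothing is read from these differences to all genes.

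Among 10 partners of factor XIII in the clot, 4 were tested and 1 rose. Thbs1 (thrombospondin 1, released by platelets and bound in clots) was at 70.1, 24.6 and 49.6 FPKM in TSCI, against 5.18, 1.87 and 4.11 FPKM in sham. Its log2 difference was 3.49 ± 0.68 (SE), with an adjusted p of 0.0282. Fibronectin (Fn1), which factor XIII joins to fibrin, was at 266, 33.9 and 75.9 FPKM in TSCI libraries and 36.2, 12.6 and 16.6 FPKM in sham. The groups overlapped and the adjusted p was 0.304. Vtn (vitronectin) was at 18.6, 13.5 and 22.0 FPKM in TSCI libraries and 25.7, 37.5 and 33.1 FPKM in sham, lower in every TSCI library but past no threshold (log2 difference -0.82, adjusted p 0.654). The fibrinogen chains Fga, Fgb and Fgg, made in the liver, did not exceed 0.146 FPKM in any library.

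All 13 surface and matrix partners of Tgm2 were tested. All 13 had positive log2 differences, with a median of 1.55, and 1 passed the threshold. Itga5, the integrin chain that with Itgb1 forms the main fibronectin receptor, was at 25.8, 11.03 and 11.8 FPKM in TSCI, against 0.893, 0.840 and 1.47 FPKM in sham (log2 difference 3.33 ± 0.66 SE, adjusted p 0.0297). Itgb1 was at 75.9, 38.8 and 121 FPKM in TSCI libraries and 20.8, 12.8 and 8.28 FPKM in sham, with an adjusted p of 0.142. The groups did not overlap, and the spread within TSCI was wide. Sdc4, a heparan sulphate proteoglycan that acts with integrins, was at 109, 109 and 168 FPKM in TSCI libraries and 44.6, 9.95 and 30.9 FPKM in sham, with an adjusted p of 0.190.

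Cornified envelope genes, which encode the proteins that Tgm1 cross-links in skin, were mostly absent. Of 17 genes 4 were tested, none passed in limma, and 2 were higher and 2 lower in TSCI at an unadjusted p under 0.05. Sprr1a, a small proline-rich envelope protein that injured neurons also make, was at 52.3, 3.28 and 18.4 FPKM in TSCI libraries and 2.79, 0 and 0 FPKM in sham, with a log2 difference of 4.05 ± 0.99 (SE) and an adjusted p of 0.0742. TSCI replicates 1 and 3 lay far above sham, and TSCI replicate 2 lay close to sham replicate 1. The keratins Krt10 (log2 difference -1.57, adjusted p 0.346) and Krt1 (-1.42, adjusted p 0.401) were lower in every TSCI library and passed no threshold. Loricrin (Lor) and involucrin (Ivl) did not exceed 0.154 FPKM in TSCI or 0.503 FPKM in sham. Filaggrin (Flg) was at 0 in all TSCI libraries and at 2.06, 0 and 0 FPKM in sham replicates 1 to 3.

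Of 11 regulators, 10 were tested and 1 rose. Il4ra, the interleukin 4 receptor chain, was at 17.0, 10.9 and 11.99 FPKM in TSCI, against 0.550, 0.396 and 0.960 FPKM in sham (log2 difference 3.61 ± 0.64 SE, adjusted p 0.0200). Stat6, the factor that this receptor activates, was at 9.99, 5.97 and 11.9 FPKM in TSCI libraries and 3.14, 2.03 and 2.68 FPKM in sham, with no overlap and an adjusted p of 0.316. Hif1a, the oxygen-regulated factor, was at 49.6, 16.1 and 57.0 FPKM in TSCI libraries and 24.9, 2.96 and 5.24 FPKM in sham, where sham replicate 1 lay above TSCI replicate 2 (adjusted p 0.286). The calls of Thbs1, Itga5 and Il4ra were each lost when any TSCI library, sham replicate 2 or sham replicate 3 was left out (adjusted p 0.0569 to 0.245), and with no filter on low values (0.182 to 0.219). They were also lost when all isoforms or only class = isoforms were counted (0.0505 to 0.126), those of Thbs1 and Itga5 under quantile normalization (0.0548 and 0.0768), and that of Itga5 under median-ratio scaling (0.0557). Of the genes named above that did not pass, 4 passed with lane 8 as a covariate, namely Fn1 (0.0451), Itgb1 (0.0361), Sdc4 (0.0496) and Sprr1a (0.00752), and without sham replicate 1 these passed too (0.0398, 0.0177, 0.0192 and 0.000426), as did Hif1a (0.00869). Without both lane 8 libraries Itgb1 (0.0409), Sdc4 (0.0282), Sprr1a (0.0122) and Hif1a (0.0417) passed and Fn1 did not (0.131), and Sprr1a also passed without TSCI replicate 2 (0.0419).

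**Figure D5:**
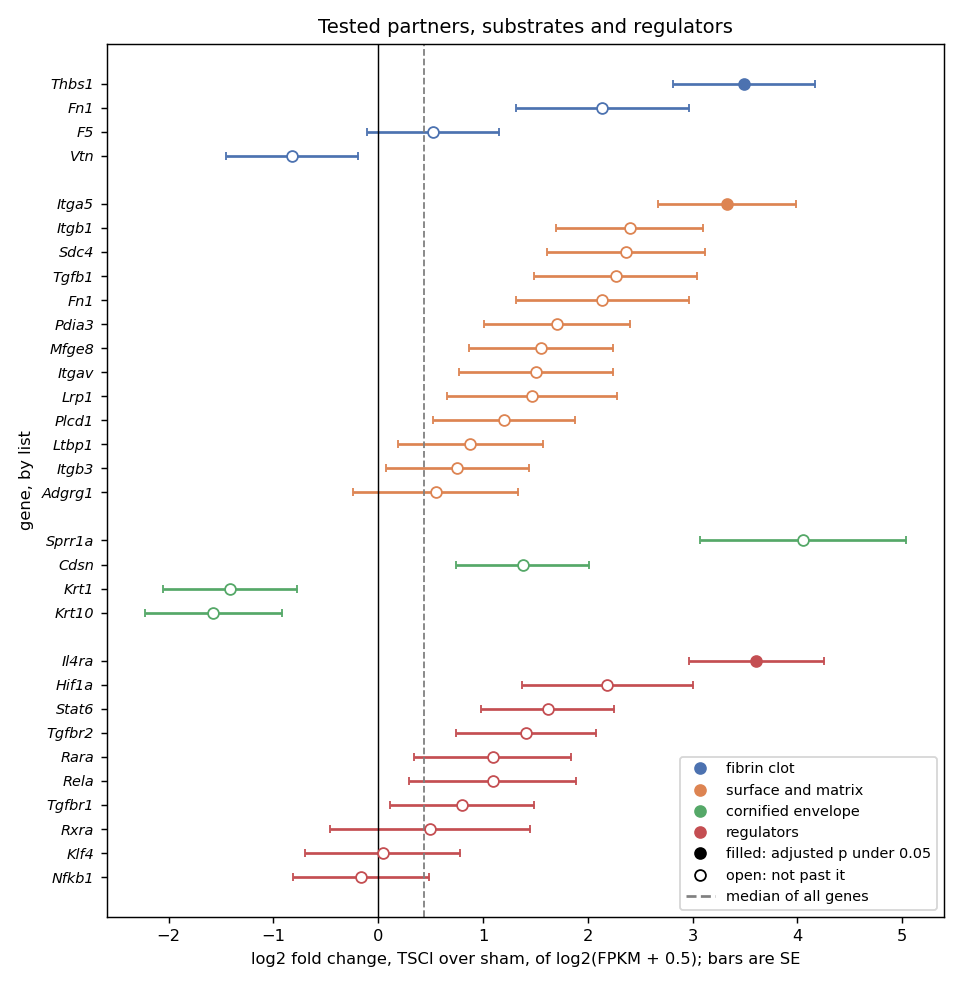
Log2 difference (TSCI over sham, log2(FPKM + 0.5) scale) of each tested partner, substrate and regulator, grouped by list, with bars for the SE, filled points past the limma threshold and a dashed line at the median of all genes (0.44). Thbs1 (3.49), Itga5 (3.33) and Il4ra (3.61) are filled; Fn1 appears in 2 lists.

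Markers of some of the cell types known to make these enzymes differed between groups too. Over all tested genes, 13.4% had every TSCI library above every sham library, and 0.878% passed in limma as higher. The marker lists were chosen with earlier results of these data known, so nothing is read from their counts against these shares. Of 9 tested markers of border macrophages, which line the vessels and meninges, all 9 were higher in every TSCI library, and Stab1 passed in limma (log2 difference 3.01, adjusted p 0.0335), a call lost under 10 of 16 alternatives (0.0790 to 0.250), among them both scalings. Their summed level was 79.2 to 144 FPKM in TSCI libraries and 9.94 to 28.7 FPKM in sham, and Pf4, at 22.3 to 44.5 FPKM in TSCI libraries and 1.37 to 9.84 FPKM in sham, was the highest of them. Monocyte markers summed to 73.7 to 91.5 FPKM in TSCI libraries and 6.82 to 13.1 FPKM in sham, with all 7 higher in every TSCI library and Cd14 past the threshold (adjusted p 0.0163, lost under 6 of 16 alternatives, at 0.0521 to 0.189); Vcan and Chil3 were the highest. The platelet list, which shares Pf4 with the border macrophages, summed to 47.6 to 73.7 FPKM in TSCI libraries and 8.21 to 26.7 FPKM in sham. None of its 6 tested genes passed (1 was higher at an unadjusted p under 0.05) and 2 lay above sham in every TSCI library. With lane 8 as a covariate Pf4 passed (adjusted p 0.0123, against 0.0905 without), as did Vcan (0.0296, against 0.137) and Chil3 (0.0256, against 0.0710). Gp1bb was at 0 in every library but TSCI replicate 3, and Ppbp overlapped between groups. The part of these cells in the F13a1 difference was not tested.

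Markers of alternatively activated macrophages summed to 101 to 360 FPKM in TSCI libraries and 6.33 to 21.2 FPKM in sham. Of 7 tested, 3 rose in limma, against 0.878% of all tested genes. They were Arg1 (arginase 1, log2 difference 6.80, adjusted p 0.00225), Clec7a (3.77, adjusted p 0.0464) and Il4ra. Of the 7 tested, 5 had positive log2 differences. Retnla (-1.12, adjusted p 0.597) and Mgl2 (-0.82, adjusted p 0.752) went the other way, with overlap between groups. The Clec7a call was lost under 9 of 16 alternatives (adjusted p 0.0700 to 0.359), among them both scalings and a pseudocount of 0.1, and the Arg1 call with no filter on low values (0.178). The markers did not share an order among TSCI libraries. Il4ra and Mrc1 were highest in replicate 1 and lowest in replicate 2, as Tgm1 and Tgm2 were. Arg1 and Chil3 were highest in replicate 2 and Clec7a in replicate 3. The typical level of all genes, as a median-ratio factor, was 1.45, 0.870 and 1.38 in TSCI replicates 1 to 3. It was thus also highest in replicate 1 and lowest in replicate 2, and nothing is read from that order. Microglial markers summed to 151 to 291 FPKM in TSCI libraries and 48.2 to 73.6 FPKM in sham, with none of 6 past the threshold in limma and 2 higher at an unadjusted p under 0.05.

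For Tgm1, the keratinocyte list held 8 markers and 1 tested gene, Trp63, which did not pass (adjusted p 0.889). The summed level was 0.438 to 1.01 FPKM in TSCI libraries and 0.626 to 3.86 FPKM in sham. Krt5 and Krt14, which define basal keratinocytes, did not exceed 0.0845 FPKM in any TSCI library, and 2 of the 8 markers were at 0 in all TSCI libraries. In sham replicates 1 to 3, Krt5 was at 1.13, 0 and 0 FPKM and Krt14 at 0.872, 0 and 0.0651 FPKM. The part of these cells in the Tgm1 difference was not tested. For Tgm2, endothelial markers summed to 25.0 to 66.8 FPKM in TSCI libraries and 9.21 to 22.3 FPKM in sham, with 1 of 6 genes higher in every TSCI library. Fibroblast markers summed to 450 to 547 FPKM in TSCI libraries and 124 to 188 FPKM in sham. Here 6 of 7 were higher in every TSCI library, which held for 13.4% of all tested genes. Astrocyte markers overlapped, at 211 to 1307 FPKM in TSCI libraries and 193 to 1046 FPKM in sham. None of these 19 genes passed in limma, while 2 endothelial and 4 fibroblast genes were higher at an unadjusted p under 0.05. Their part in the Tgm2 difference was not tested. Blood and muscle also varied within groups: erythrocyte genes summed to 5137 to 97864 FPKM in TSCI libraries and 1771 to 25063 FPKM in sham, and skeletal muscle genes to 0.334 to 7.88 FPKM in TSCI libraries and 1.39 to 81.2 FPKM in sham. No gene of these lists passed in either direction; at an unadjusted p under 0.05, 1 erythrocyte gene was higher and 3 muscle genes were lower.

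The genes most like each enzyme were found from profiles over the 6 libraries, as the root mean square difference of log2(FPKM + 0.5) after each gene was centred, among 16739 genes. The nearest to Tgm1 were Lilrb4a, a myeloid receptor (0.36), Adam8, a metalloprotease (0.43), and Lcn2, lipocalin 2 (0.45). Lilrb4a has a close paralog, Lilr4b, so its value is uncertain. Like Tgm1, all 3 were highest in TSCI replicate 1 and at 0 in sham replicate 2, the library that lists many genes at 0. They were picked on this profile, so nothing is read from the likeness.

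The nearest to Tgm2 were Slc43a3, a membrane transporter (0.19), Thbs1 (0.20) and Flna, filamin A (0.21). All 3 repeat the order of Tgm2 in TSCI, with replicate 1 highest and replicate 2 lowest, which the choice by profile favours. The nearest to F13a1 were Gm11216 (0.11), the DNA polymerase epsilon subunit Pole2 (0.13) and Aunip (0.15), which are low genes at 1.36 to 3.20 FPKM in TSCI libraries and 0 to 0.208 FPKM in sham. The 3 enzymes were not each other's closest: Tgm2 and F13a1 were the 78th and 415th nearest genes to Tgm1, F13a1 and Tgm1 the 368th and 4143rd nearest to Tgm2, and Tgm2 and Tgm1 the 1058th and 14965th nearest to F13a1.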

How the data were processed

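Spinal cord RNA for 3 TSCI and 3 sham libraries was extracted with Trizol, depleted of ribosomal RNA and used for stranded total RNA sequencing, per the labels' protocols. HISAT2, StringTie and TopHat are listed in the submitters' processing notes with no version. The circRNA caller and the build were not given in the sources used here. Among 8 annotated isoforms, 5 had the same start and end in GENCODE M21, so coordinates are given as GRCm38. The authors deposited FPKM and coverage (signal) per isoform, and estimated counts and FPKM per circRNA. Aligned bases were computed from the ratio of FPKM to coverage. The deposited circRNA counts were whole (within 1e-06) in 28.3% to 35.8% of rows and were not tested.

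Gene values were FPKM summed over isoforms of reference-like class codes (=, j, c, o, e), leaving out intronic and nearby assemblies. limma 3.58.1 (R 4.3.3) with a mean-variance trend was fitted to log2(FPKM + 0.5) of the 16740 genes with a mean of at least 0.5 FPKM, and p-values were adjusted by Benjamini-Hochberg, with calls under 0.05. The pseudocount makes folds of low genes too small. The p-values measure the spread between these libraries. The script was tested on simulated data with known changes. It recovered 22% of genes with a log2 change of 2 and 98% of those with 4, and 13 unchanged genes were called. A gene that did not pass may thus still differ by a log2 change of 2. Python 3.11.15 was used for the rest.

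The members and lists were chosen with earlier results of these data known. Named genes were the members, the whole family list, the 3 genes of lowest p and every passing gene per partner list, the 2 highest tested genes per marker list, and the 3 nearest profiles per member. Some items that this rule takes are left out of the text. Cd14, Mrc1, Retnla, Mgl2, Krt5, Krt14, Gp1bb, Lor, Ivl, Flg, the fibrinogen chains and the genes overlapping Tgm2 were named outside this rule. They were named after their values were seen. Promoter sequences came from RefSeq, whose table matched 2 of the 3 genes; Tgm2 was not among them. Alternatives were other isoform classes, pseudocounts, filters and scalings, the lane or replicate number in the fit, and each library left out.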

Additional observations from a re-analysis of the deposited data

Results flagged for a closer look

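A single-exon assembly of 290 bases near Tgm1 (chromosome 14, 55698747 to 55699036, minus strand), which is outside the gene sum, was at 3.84 FPKM in TSCI replicate 1 and at 0 in the other 5 libraries. It drew attention as signal in a row that no comparison uses, above the level in the sham libraries. It rests on 4.96 kilobases of aligned bases.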

How the results depend on the processing

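The sign of the log2 difference of Tgm1, Tgm2, F13a1 and the 3 circRNAs was the same under every alternative run. For F13a1 with all isoforms that difference was near 0 and below the median gene. The log2 difference of Tgm1 was 7.20 with a pseudocount of 0.1 and 4.70 with 1. That of F13a1 was 0.10 with all isoforms, where the groups overlapped and the median of all genes was 0.465. It was 2.43 and 2.04 with pseudocounts of 0.1 and 1, 1.81 with median-ratio scaling and 1.73 with quantile normalization. These scalings put the median of all genes at 0.06 and -0.03, against 0.44 without. That of circRNA5295 was 3.61 when scaled to total circRNA counts and 4.10 with a pseudocount of 0.1; the circRNA alternatives were chosen after seeing the data. With each library left out it was 5.06 to 5.86 for Tgm1, 2.88 to 3.53 for Tgm2, 2.15 to 2.30 for F13a1, 1.92 to 2.56 for circRNA10308, 2.32 to 2.91 for circRNA5294 and 2.59 to 3.28 for circRNA5295.

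Counts of genes past the threshold moved widely. Against 147 higher and 2 lower, it was 24 and 0 with all isoforms, 43 and 0 with class = only, 0 and 0 with no filter (2030 and 305 at an unadjusted p under 0.05), 70 and 1 with median-ratio scaling, 60 and 1 with quantile normalization, 602 and 42 with lane 8 as a covariate, and 487 and 129 without both lane 8 libraries. With a pseudocount of 0.1, 1 was lower. With each library left out, 14 to 1196 were higher and 0 to 252 lower, the most without sham replicate 1 and the fewest higher without TSCI replicate 3. The unadjusted split of 1677 higher and 295 lower became 1386 and 708 with median-ratio scaling and 1202 and 990 with quantile normalization. Partner, substrate and regulator genes higher in TSCI numbered 0 with all isoforms, class = only or no filter, 1 with quantile normalization, 8 with lane 8 as a covariate, 7 without both lane 8 libraries, and 0 to 11 with each library left out, against 3. The cause of these moves was not tested.

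Same-numbered libraries deviated together with correlations of 0.49, 0.28 and 0.08, so the numbers are not taken to pair them, and TSCI replicate 2 correlated best with sham replicate 3 (0.36). With the replicate number as a block, 846 genes were higher and 117 lower, and 9 of the listed genes were higher.

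Precision is limited by 3 libraries a group and, in sham replicate 2, by the genes listed at 0. TSCI replicate 1 and sham replicate 1 shared lane 8, so lane and group are not confounded there, but sham replicate 2 was alone in its lane.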
